A study of Mus musculus with 2 samples.

Results

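The circadian clock genes *Arntl*, *Clock*, *Per1*, *Per2*, *Per3*, *Cry1*, *Cry2*, *Nr1d1*, *Nr1d2* and *Dbp* were examined in RNA sequencing of cultured mouse chondrocytes. They were chosen by symbol, 10 genes of the 22156 listed, and every one had enough counts to be tested. The comparison asks whether the control and the *Myl3*-KO culture look alike in their clock transcripts, which could differ with time of day as well as with genotype. There was 1 library per genotype, so no value has a replicate check, and every interval and p-value below covers counting error only and compares the libraries, not the genotypes.

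Both libraries came from primary chondrocytes, the cells of cartilage, taken from newborn mice aged 24 to 72 h and grown as a monolayer in serum-containing medium. In *Myl3*-KO mice, Cre recombinase under the *Col2a1* promoter, which is active in cells of the chondrocyte lineage, deletes the floxed *Myl3* gene. The controls are described as *Myl3* flox/flox littermates without Cre in the methods of the study, and as wild type in the sample labels. The time of day at harvest, any synchronisation of the cultures and the number and sex of the mice pooled are not given in the sources used here. *Myl3* itself was listed at 0 counts in both libraries, so it gives no check of the labels.

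The totals were 17612435 expected counts for the control library and 13477977 for *Myl3*-KO, an expected count being an estimated number of reads per gene. A count of 3, taken as the floor, equals 0.170 CPM (each count divided by its library total and scaled alike) in the control against 0.223 CPM in *Myl3*-KO. Of 16 chondrocyte markers, 5 stood at 0 in both libraries, namely *Acan*, *Matn1*, *Matn3*, *Hapln1* and *Cnmd*, and *Col2a1* had 30 and 27 counts, so these matrix genes were at or near 0 in both cultures. *Col9a1*, *Col9a2*, *Comp*, *Prg4*, *Sox6* and *Col9a3* also had few counts, at most 22 in either library. Only the rest of that list was well detected. There were 866 and 480 counts of *Sox9*, 893 and 684 of *Sox5*, 293 and 395 of *Col11a2* and 121 and 99 of *Col11a1*. Fibroblast markers summed to 17176 CPM in the control against 19455 CPM in *Myl3*-KO, most of it *Col1a2*, while *Thy1* was at 0 in both.

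The clock is a feedback loop of transcription. ARNTL (also called BMAL1) and CLOCK form an activator that binds E-box elements and switches on the *Per* and *Cry* genes, whose proteins later repress that activator. The same activator drives *Nr1d1* and *Nr1d2*, which encode the REV-ERB repressors, and these hold down *Arntl*, *Clock* and other genes through ROR response elements (RREs), so that E-box genes and RRE genes peak at different times. DBP and its relative TEF activate genes through D-boxes, and NFIL3 represses through the same element. Chondrocytes carry such a clock, and primary cells in culture keep it for some days, usually drifting out of step with each other unless a medium change or another signal resets them.

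Promoters of 4 members are shown because these windows hold matches to elements of the clock, which need not be the element by which a gene is grouped below. Each is a RefSeq window on GRCm38.p6 from 250 bases before to 50 bases after an annotated start site, printed 5′ to 3′ on the strand of the gene, with matches in capitals. The *Arntl* window, chr7:113207261-113207560 on the plus strand, holds 3 matches to the RRE core. The *Per1* window, chr11:69098699-69098998 on the plus strand, holds an E-box and a D-box. The *Per3* window, chr4:151044616-151044915 on the minus strand, holds 2 D-boxes and, after them, an RRE core read on the other strand. The *Cry1* window, chr10:85185005-85185304 on the minus strand, holds an E-prime box, read on the other strand, and then an E-box.
Arntl: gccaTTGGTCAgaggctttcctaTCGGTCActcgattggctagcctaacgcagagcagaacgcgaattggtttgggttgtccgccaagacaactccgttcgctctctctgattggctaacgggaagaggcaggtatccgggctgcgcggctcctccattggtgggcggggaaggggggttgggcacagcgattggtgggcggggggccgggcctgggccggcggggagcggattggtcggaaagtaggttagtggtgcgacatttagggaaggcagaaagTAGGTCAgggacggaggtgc
Per1: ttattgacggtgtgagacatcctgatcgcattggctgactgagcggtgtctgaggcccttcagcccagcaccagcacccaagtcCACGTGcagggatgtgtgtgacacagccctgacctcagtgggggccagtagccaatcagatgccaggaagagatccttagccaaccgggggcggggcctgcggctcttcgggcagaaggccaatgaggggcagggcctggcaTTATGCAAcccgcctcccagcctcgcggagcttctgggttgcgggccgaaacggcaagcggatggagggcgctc
Per3: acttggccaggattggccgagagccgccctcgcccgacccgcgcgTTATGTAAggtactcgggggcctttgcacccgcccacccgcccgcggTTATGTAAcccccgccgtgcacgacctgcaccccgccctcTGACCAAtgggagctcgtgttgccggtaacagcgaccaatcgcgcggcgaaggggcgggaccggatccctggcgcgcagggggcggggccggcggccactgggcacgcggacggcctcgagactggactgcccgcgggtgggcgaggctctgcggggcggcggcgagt
Cry1: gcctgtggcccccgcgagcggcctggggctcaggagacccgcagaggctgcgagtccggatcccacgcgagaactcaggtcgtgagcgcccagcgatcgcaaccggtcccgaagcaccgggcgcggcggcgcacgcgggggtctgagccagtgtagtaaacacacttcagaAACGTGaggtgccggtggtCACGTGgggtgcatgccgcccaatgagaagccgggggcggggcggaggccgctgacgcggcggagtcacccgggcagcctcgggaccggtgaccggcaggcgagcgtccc

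The letters searched on both strands were CACGTG for the E-box, CACGTT for the E-prime box, TTATGNAA for the D-box, TNGGTCA for the RRE core and TGACGTCA for the cAMP response element (CRE). Windows were found for 9 of the 10 members, all but *Per2*. The E-box stood in windows of *Per1* and *Cry1*, at positions -166 and -60 from the start site, while 7.15% of all 32851 promoter windows hold it. The E-prime box, in 4.68% of all windows, was found for *Cry1*, *Cry2* and *Nr1d1*. The D-box, in 3.38%, was found for *Per1* at position -24 and for *Per3* at -205 and -158. The RRE core, in 11.0%, was found for *Arntl*, *Cry2* and *Per3*. The CRE, in 1.79%, was in no member's window, and the windows of *Clock*, *Nr1d2* and *Dbp* held none of these letters. A match is only a string of letters, and the absence of one says nothing of the factor, since elements also lie outside so short a window.

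**Figure D1:**
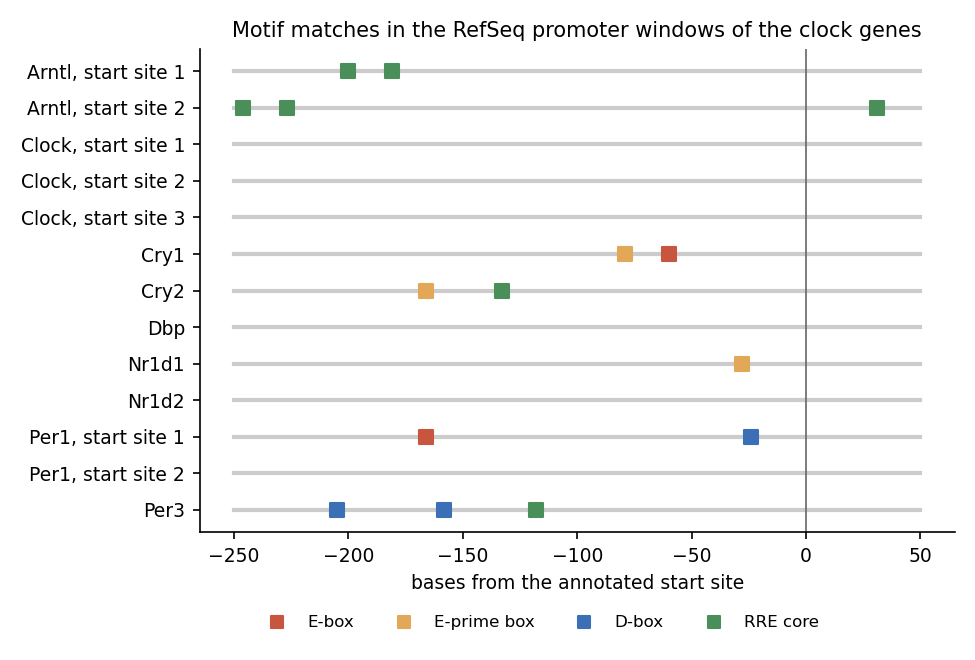
Matches to the E-box, E-prime box, D-box and RRE core in the RefSeq promoter windows of 9 clock genes, by distance in bases from the annotated start site, with 1 line per window. *Arntl* has 3 RRE cores in the window of its start site 2, and *Per3* has 2 D-boxes, at -205 and -158.

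Every member was detected in both libraries, and levels between genes are compared as FPKM, which scales reads by gene length and by library. In the control, *Clock* was the highest at 19.02 FPKM (counting interval 18.3 to 19.7), followed by *Nr1d2* at 13.67 and *Per1* at 9.78. *Cry1* came next at 6.72 FPKM, above *Cry2* at 4.71, *Arntl* at 4.22, *Nr1d1* at 3.73 and *Dbp* at 2.71. At the low end of the control were *Per3* at 1.12 FPKM and *Per2* at 0.91 FPKM. Neighbours from *Cry2* down to *Dbp*, and *Per3* and *Per2*, had intervals that overlap and so were not ordered beyond counting error.

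In *Myl3*-KO, *Nr1d2* stood first at 19.75 FPKM (counting interval 18.7 to 20.9), above *Clock* at 15.82 and *Per1* at 10.5. The places of *Clock* and *Nr1d2*, the activator subunit and the more abundant REV-ERB gene, were thus exchanged between the libraries, with intervals that do not overlap in either. *Cry1* at 4.98 FPKM, *Cry2* at 4.92, *Nr1d1* at 4.59, *Arntl* at 3.58, *Dbp* at 3.36 and *Per3* at 2.67 formed a run of overlapping neighbours. *Per2* was again the lowest at 1.31 FPKM. When counts were divided by the longest annotated transcript instead, 4 members in the control against 3 in *Myl3*-KO took another place, while *Clock* and *Nr1d2* kept the first and the second place in the control and the reverse order in *Myl3*-KO.

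**Figure D2:**
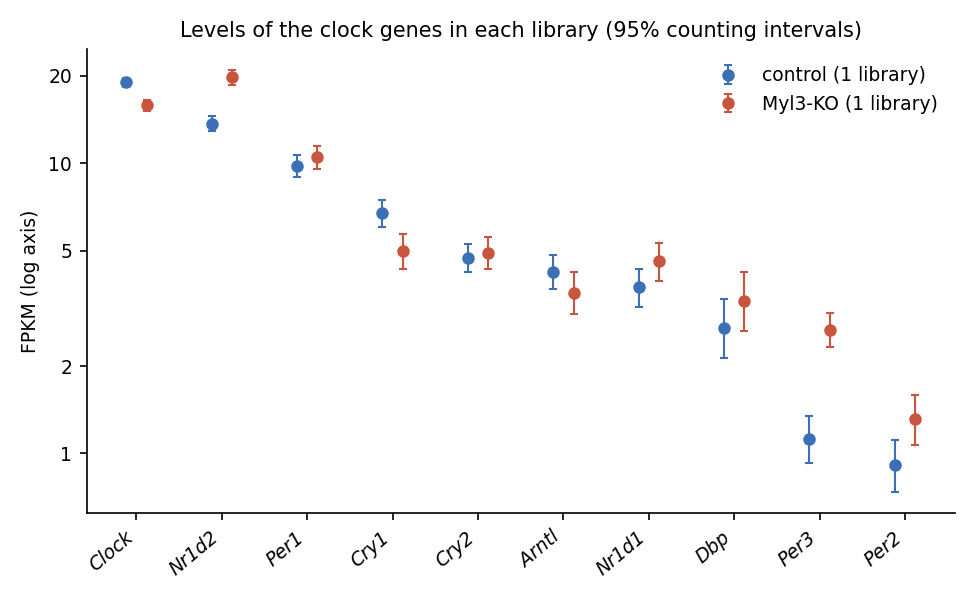
FPKM of the 10 clock genes on a log axis in the control library (blue) and the Myl3-KO library (red), with bars for the 95% counting interval and 1 library per genotype. *Clock* leads in the control at 19.02 FPKM and *Nr1d2* leads in Myl3-KO at 19.75 FPKM, and *Per3* shows the widest gap between the libraries.

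Differences between the libraries are given as the log2 ratio of CPM, *Myl3*-KO over control, with the adjusted p of a two-sided exact binomial test over 12431 genes with at least 10 counts in all. A gene is called where the ratio reached 1.5-fold and the adjusted p was below 0.05. Of the 10 members, 1 was called higher, *Per3*, and 0 were called lower, while 3.14% of all genes tested were called higher and 0.925% lower. By the adjusted p alone, 4 members were higher (*Per1*, *Per2*, *Per3* and *Nr1d2*) and 2 were lower (*Clock* and *Cry1*), beside 18.6% of all genes tested higher and 16.8% lower. At these depths a small ratio passes the exact test easily, as those shares show. Over the members, 7 ratios were above and 3 below 0, with a median of 0.30, while 52.7% of all genes tested had a ratio above 0 and their median was 0.02.

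The members were also sorted by the element that is known to drive each gene. This grouping was made with the values known and partly fixes the directions within each group, so its counts and medians are a description only. All 6 members known mainly as E-box genes (*Per1*, *Per2*, *Per3*, *Nr1d1*, *Nr1d2* and *Dbp*) had ratios above 0, 4 of them past the adjusted p and not *Nr1d1* or *Dbp*, with a median log2 ratio of 0.45 and a summed level of 118 CPM in the control against 167 CPM in *Myl3*-KO. The 3 members known as RRE genes (*Arntl*, *Clock* and *Cry1*) had ratios below 0, 2 of them past the adjusted p and not *Arntl*, with a median of -0.23 and sums of 193 CPM and 164 CPM. *Cry1* answers to both kinds of element, its window above held no RRE core, and it is grouped with the RRE genes because its transcript peaks late. *Cry2*, which cycles weakly, was left in neither group and hardly differed. Over all 10 members the summed level was 328 CPM in the control against 350 CPM in *Myl3*-KO.

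**Figure D3:**
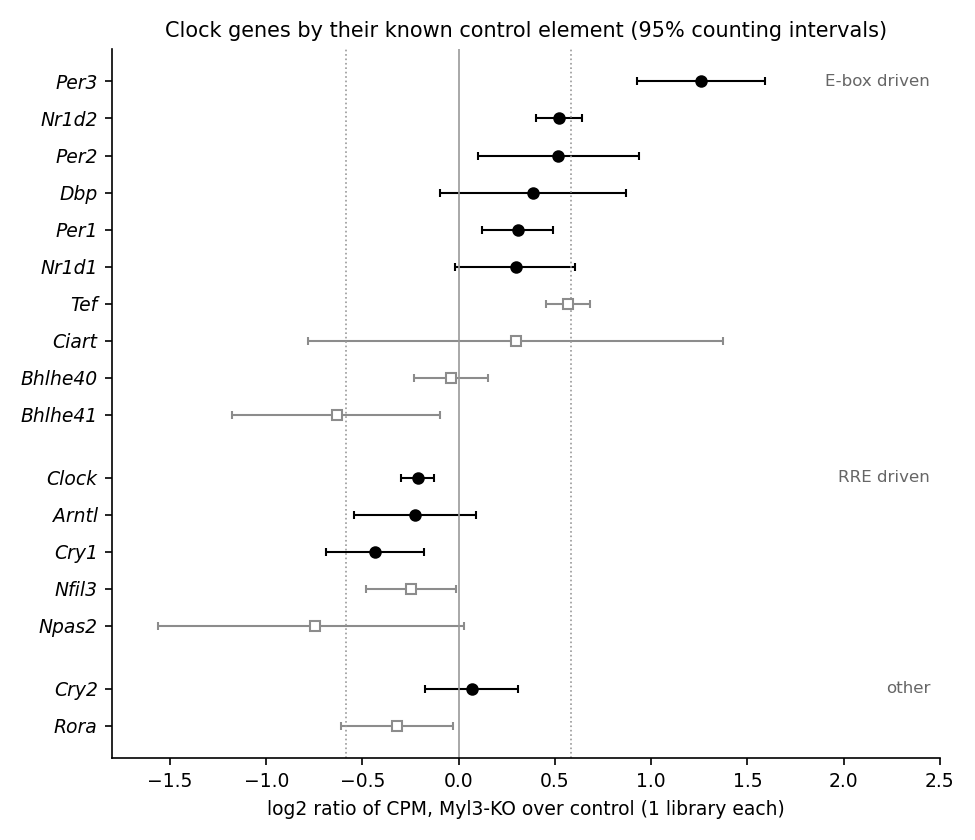
Log2 ratio of CPM, Myl3-KO over control, for the clock members (filled circles) and related clock genes (open squares), grouped by known control element, with 95% counting intervals and dotted lines at 1.5-fold in each direction. The points of the E-box members lie to the right of 0 and those of the RRE genes to the left, with intervals that include 0 for *Nr1d1*, *Dbp*, *Arntl* and *Npas2*, and *Per3* alone of the members passes the dotted line.

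Of the activators, *Clock* was slightly lower in *Myl3*-KO and *Arntl* did not pass the test. *Clock* (ENSMUSG00000029238, chr5:76209868-76304792, minus strand) encodes the DNA-binding partner of ARNTL and had 2821 counts in the control against 1863 in *Myl3*-KO. Its log2 ratio was -0.21 (95% counting interval -0.30 to -0.13, exact-test adjusted p = 6.80e-06), a small difference that passed because *Clock* was the most deeply counted member. *Arntl* (ENSMUSG00000055116, chr7:113207465-113314126, plus strand), the gene with the RRE cores shown above, is known for stopping the rhythm when it alone is lost. It had 214 and 140 counts and a ratio of much the same size, -0.23 (-0.54 to 0.09, exact-test adjusted p = 0.294), which did not pass. The interval for *Arntl* thus reaches from clearly lower to a little higher.

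Among the repressors, the 3 *Per* genes were higher in *Myl3*-KO and *Cry1* was lower. *Per3* (ENSMUSG00000028957, chr4:151003652-151044665, minus strand) encodes a PERIOD protein that is dispensable for the core rhythm in mice but cycles strongly in many tissues. It had 118 counts in the control against 216 in *Myl3*-KO, or 6.70 CPM and 16.0 CPM, although the *Myl3*-KO library was the smaller. The fold was 2.39 (1.90 to 3.02) and the log2 ratio 1.26 (0.93 to 1.59, exact-test adjusted p = 1.78e-13). Of the 8638 genes tested whose total counts lay in the range of the members, 150 to 4684, 0.0810% had a ratio as high. That range is wide, and genes counted more deeply than *Per3* vary less by counting error alone. This share, and those given below for other members, are therefore rough guides. *Per3* lies within the annotated bounds of *Camta1* on the same strand, but they share 0 exon bases and *Camta1* had 11 and 10 counts.

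*Per2* (ENSMUSG00000055866, chr1:91415982-91459324, minus strand), a PERIOD gene that is required for a stable rhythm, had 94 counts in the control against 103 in *Myl3*-KO. Its log2 ratio was 0.52 (0.10 to 0.94, exact-test adjusted p = 0.0358), and 3.31% of genes in the members' count range had a ratio as high. *Per1* (ENSMUSG00000020893, chr11:69095217-69109960, plus strand) is a PERIOD gene that also responds quickly to glucocorticoids and cAMP. With 500 and 473 counts, it had a log2 ratio of 0.31 (0.12 to 0.49, exact-test adjusted p = 0.00429), but the ratio of its FPKM values was only 0.10. The gap between the scales comes with different effective lengths, 2.90 kb in the control and 3.34 kb in *Myl3*-KO, which counts and FPKM imply for *Per1*. The size of the *Per1* difference therefore depends on which deposited scale is read.

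*Cry1* (ENSMUSG00000020038, chr10:85131700-85185064, minus strand) encodes the stronger cryptochrome repressor and had 358 counts in the control against 203 in *Myl3*-KO. Its log2 ratio of -0.43 (-0.69 to -0.18, exact-test adjusted p = 0.00304) was the lowest among the members, and 2.47% of genes in the same count range were as low. *Cry2* (ENSMUSG00000068742, chr2:92403646-92434043, minus strand), the other cryptochrome, had 319 and 256 counts and a ratio of 0.07 (-0.17 to 0.31, exact-test adjusted p = 0.731). The cryptochromes differed from each other in this, as their ratio below shows.

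In the second loop, both REV-ERB genes had positive ratios, and only the deeper of them passed the test. *Nr1d2* (ENSMUSG00000021775, chr14:18204054-18239127, minus strand), which encodes REV-ERB beta, had 1108 counts in the control against 1217 in *Myl3*-KO. Its fold was 1.44 (1.32 to 1.56), a log2 ratio of 0.52 (0.40 to 0.64, exact-test adjusted p = 1.37e-16), just under the 1.5-fold limit. Of the 31-base stretches in the annotated transcripts of *Nr1d2*, 9.51% are shared with the annotated gene *AC170187.1*. How reads of such stretches were assigned is not given in the sources used here. *Nr1d1* (ENSMUSG00000020889, chr11:98767932-98775333, minus strand), which encodes REV-ERB alpha, had 178.9 and 168.45 expected counts and a ratio of 0.30 (-0.02 to 0.61, exact-test adjusted p = 0.132). *Nr1d1* overlaps the thyroid hormone receptor gene *Thra* on the opposite strand over 263 exon bases, 8.55% of its exons, and the strand used in counting is not given in the sources used here. *Thra* had 1705.1 and 1395.55 counts and a ratio of 0.10. The counts of *Nr1d1* and *Thra* together gave 0.12, a value set mostly by the more deeply counted *Thra*. It therefore cannot show whether reads of *Thra* were counted for *Nr1d1*, and such reads could not be told apart.

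The output gene *Dbp* (ENSMUSG00000059824, chr7:45705088-45710203, plus strand) encodes a D-box activator whose transcript swings widely where the clock runs. It had 74.76 expected counts in the control against 74.77 in *Myl3*-KO, nearly the same number from libraries of different size. That gave a ratio of 0.39 (-0.10 to 0.87, exact-test adjusted p = 0.228), which did not pass at the lowest depth of any member. *Dbp* shares 539 exon bases, 18.0% of its exons, with *Sphk2* on the opposite strand, and *Sphk2* had a ratio of 0.24. Their counts together gave 0.26, a value set mostly by the more deeply counted *Sphk2*, so it does not settle how shared reads were assigned.

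**Figure D4:**
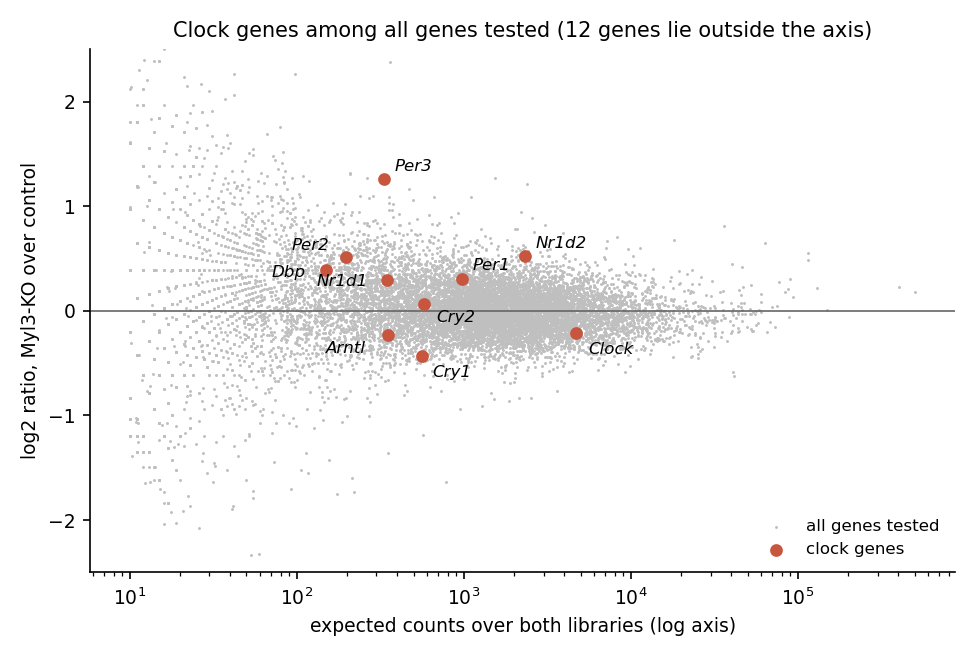
Log2 ratio, Myl3-KO over control, against expected counts over both libraries on a log axis for all genes tested (grey) and the 10 clock genes (red), with 12 genes beyond the axis. Most members lie inside the cloud of genes with like counts, and *Per3* lies at its upper edge.

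A ratio of 2 genes within a library does not depend on how libraries are scaled, so 9 pairs of clock genes were compared between the libraries as odds ratios with exact 95% intervals. The pairs share genes and are not independent, and no p-value was computed for them. *Nr1d1* over *Arntl*, a repressor over the gene it represses, was 0.836 in the control against 1.20 in *Myl3*-KO, an odds ratio of 1.43 (1.05 to 1.96). *Nr1d2* over *Arntl* went from 5.18 to 8.69, an odds ratio of 1.68 (1.33 to 2.13). *Per2* over *Arntl* was 0.439 and 0.736, an odds ratio of 1.67 (1.16 to 2.42). In each of these the E-box gene was higher relative to *Arntl* in the *Myl3*-KO library, with an interval above 1. The intervals are not adjusted for the 9 pairs. These pairs share the counts of *Arntl*, and neither *Arntl* nor *Nr1d1* passed its own test.

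*Dbp* over *Arntl* was 0.349 and 0.534, an odds ratio of 1.53 (1.02 to 2.29) whose interval barely clears 1. *Dbp* over *Cry1* was 0.209 and 0.368, an odds ratio of 1.76 (1.21 to 2.58). The widest shift was that of *Per3* over *Clock*, 0.0418 and 0.116, with an odds ratio of 2.77 (2.19 to 3.53). Of the pairs of like genes that were compared, all but the cryptochromes moved less. *Per3* was in none of these pairs, and its log2 ratio of 1.26 lay above those of *Per2* (0.52) and *Per1* (0.31). How like and unlike pairs compare therefore depends on the pairs chosen. *Per2* over *Per1* had an odds ratio of 1.16 (0.843 to 1.59) and *Nr1d2* over *Nr1d1* of 1.17 (0.928 to 1.48), both with intervals that include 1. Taken from FPKM, the shift of *Per2* over *Per1* was 1.34, because the effective length implied for *Per1* differs between the libraries. *Cry2* over *Cry1* went from 0.891 to 1.26, an odds ratio of 1.41 (1.11 to 1.81).

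**Figure D5:**
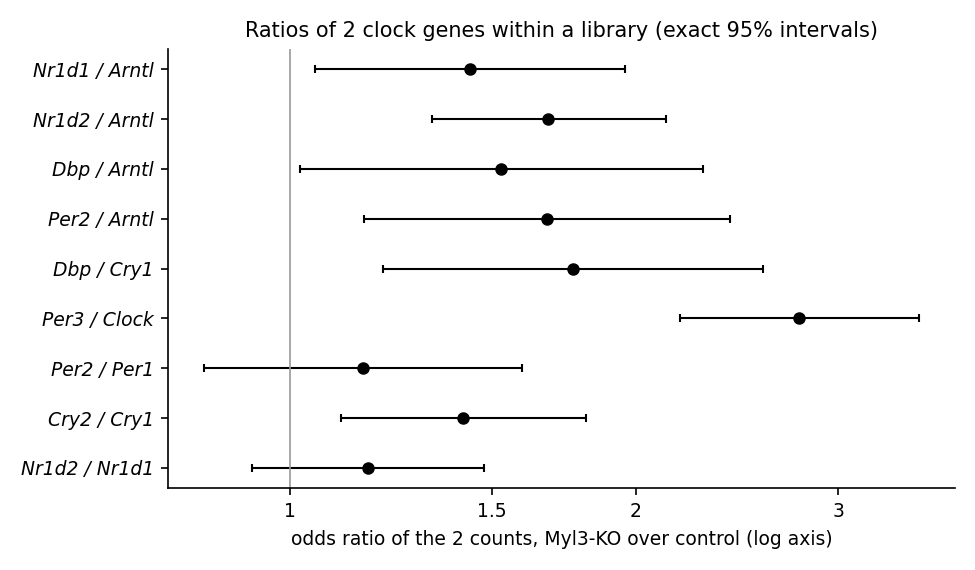
Odds ratios of the counts of 2 clock genes, Myl3-KO over control, on a log axis with exact 95% intervals for 9 pairs. All but *Per2* over *Per1* and *Nr1d2* over *Nr1d1* have intervals above 1, and *Per3* over *Clock* is the highest at 2.77.

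The rest of the pathway gave a mixed picture. Of 31 other clock genes, 28 were tested, of which 1 was called higher and 1 lower, and by the adjusted p alone 6 were higher and 5 lower, with a median log2 ratio of 0.01. Over all genes tested, 3.14% were called higher and 0.925% lower, and 18.6% were higher and 16.8% lower by the adjusted p alone, so counts this small do not set the list apart. *Rorb*, an activating ROR receptor of the RREs, had 79 counts in the control against 100 in *Myl3*-KO and was called higher at 0.73 (0.29 to 1.17, exact-test adjusted p = 0.00391). *Bhlhe41*, which encodes the E-box repressor DEC2, had 91 and 45 counts and was called lower at -0.63 (-1.18 to -0.10, exact-test adjusted p = 0.0446), a call that was lost with 1 count added to each library or with no filter on low counts. Its close relative *Bhlhe40* had 525 and 391 counts and a ratio of -0.04 (-0.23 to 0.15). Genes with too few counts for a test included *Hlf*, with 6 and 2, and *Arntl2*, with 4 and 4.

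*Tef*, the D-box activator related to *Dbp*, had 1129 and 1281 counts and a ratio of 0.57 (0.45 to 0.68, exact-test adjusted p = 2.48e-20), close to that of *Nr1d2* and also under 1.5-fold. *Nfil3*, the D-box repressor, had 388 and 250 counts and a ratio of -0.25 (-0.48 to -0.02, exact-test adjusted p = 0.0863). *Npas2*, a relative of *Clock* that can take its place, had 46 and 21 counts and a ratio of -0.75 (-1.56 to 0.03, exact-test adjusted p = 0.115). Neither *Nfil3* nor *Npas2* passed, and both had ratios below 0, as the 3 RRE members had. The 4 tested genes grouped as E-box genes that are no members were not uniform. *Tef* and *Ciart* lay above 0 and *Bhlhe40* and *Bhlhe41* below, with a median of 0.13. That group is not a full set of E-box genes. Genes of the clock list outside it included *Nampt* (-0.49) and *Wee1* (-0.32), both lower past the adjusted p, and *Usp2* (0.73), which did not pass. *Ciart*, an E-box gene that represses the activator, had only 17 and 16 counts and a ratio of 0.30 with an interval from -0.78 to 1.37.

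*Rora*, the ROR receptor best known in peripheral clocks, had 261 and 160 counts and a ratio of -0.32 (-0.61 to -0.03, exact-test adjusted p = 0.0709). Other genes past the adjusted p but under 1.5-fold were, on the higher side, the casein kinase genes *Csnk1e* (0.23) and *Csnk1d* (0.15), whose products mark PERIOD proteins for decay, and the REV-ERB corepressor genes *Hdac3* (0.16) and *Ncor1* (0.10). On the lower side they were *Nampt* (-0.49), a rate-limiting enzyme of NAD synthesis, *Tipin* (-0.34), *Wee1* (-0.32), a mitotic kinase gene under clock control, and *Sfpq* (-0.16). The annotated KEGG circadian rhythm pathway without the members held 21 tested genes, 8 above and 13 below 0, with a median of -0.04. Of these, 1 was called higher, *Rorb*, and 2 were called lower, beside 3.14% and 0.925% of all genes tested. The genes called lower were *Bhlhe41*, given above, and *Prkag3*, a subunit of the energy sensor AMPK, at -0.96 (-1.79 to -0.19). The KEGG circadian entrainment pathway is in the list of pathway enrichment that the study gives for these libraries, so it is no independent evidence. It stood below the leading pathways of that list, and no pathway listed there, leading or not, was significant after adjustment for multiple testing. Without the members, this pathway held 53 tested genes and had a median of 0.03. Of its genes, 3 were called higher and 1 lower, beside 3.14% and 0.925% of all genes tested. The gene called lower was *Prkg1*, the cGMP-dependent kinase, with 22 counts in the control against 4 in *Myl3*-KO. Neither pathway's median lay far from that of all genes tested.

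Genes that answer to signals known to reset clocks in culture were read beside the members. Of 18 immediate early genes tested, which respond to serum within minutes, 2 were called higher and 0 lower, with a median of 0.03. Over all genes tested, 3.14% were called higher and 0.925% lower. *Egr1*, the zinc-finger factor of that group, had 108 and 177 counts and a log2 ratio of 1.10 (0.75 to 1.46, exact-test adjusted p = 3.62e-09), while *Fos* had only 6 and 9 counts. *Klf4* was the other gene called, at 0.63. At the low end, *Ier3* had -0.23 and *Fosl1* -0.19, so values lay on both sides of 0.

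Of 9 cAMP response genes tested, 1 was called higher, the phosphodiesterase gene *Pde10a* at 0.83, beside 3.14% of all genes tested. Their median was 0.15. *Sik1*, the kinase that damps clock resetting, had -0.01 and *Pde4b* had 0.01. Glucocorticoid response genes, of which 12 were tested and 0 called in either direction, had a median of 0.12. By the adjusted p alone 3 were higher, *Per1* itself, *Sgk1* at 0.32 and *Tsc22d3* at 0.23, beside 18.6% of all genes tested. At the low end *Klf9* had -0.41 and *Cebpd* -0.21, neither of which passed. *Angptl4* had the highest ratio of that list, 0.39, from 14 counts in each library.

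Of 12 temperature-linked genes tested, 8 had ratios below 0, with a median of -0.11. By the adjusted p alone 2 were higher and 6 lower, beside 18.6% of all genes tested higher and 16.8% lower. The mitochondrial chaperone genes *Hspe1* and *Hspd1* had -0.41 and -0.36. The cold-inducible RNA-binding gene *Cirbp* had 0.34, the other cold-inducible gene *Rbm3* had -0.29, and *Hspb1* had 0.44. The cold-inducible pair thus pointed in opposite directions.

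Low-oxygen genes, which hypoxia-inducible factors switch on, were mostly lower in *Myl3*-KO. Of 17 tested, 6 were called lower and 14 were lower by the adjusted p alone, with a median log2 ratio of -0.53. Over all genes tested, 0.925% were called lower and 16.8% were lower by the adjusted p alone. *Ankrd37* had 178 and 41 counts and a ratio of -1.73, and *Egln3*, an oxygen-sensing hydroxylase, had 55 and 20 counts and -1.07. *Kdm3a* and *Ddit4*, at 0.06 and 0.07, had the highest ratios of that list. Of all genes tested, 52.7% had a ratio above 0, whereas all 16 proliferation genes tested had ratios below 0. These 16 had a median of -0.28, and 13 of them passed the adjusted p. *Cdk1* and *Ccnb1*, which drive entry into mitosis, were the lowest at -0.52 and -0.48, and *Mki67* was the highest at -0.02, next to *Mcm3* at -0.07.

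Muscle markers summed to 5.34 CPM in the control and to 22.8 CPM in the other library. Most of both sums was *Cdh15*, a cadherin of muscle precursors, with 73 and 290 counts, while 6 of the 10 markers were at 0 in both libraries. Immune markers summed to 2.39 and 2.52 CPM, endothelial markers to 3.92 and 3.78 CPM and chondrocyte markers to 127 and 128 CPM, and erythroid markers had 0 counts in the control against 1 in *Myl3*-KO. Among the endothelial genes, *Egfl7* had 40 and 10 counts and was called lower at -1.61 (-2.78 to -0.59, exact-test adjusted p = 0.00382), and *Vwf* had 22 and 29 counts. These sums were small, but those of the endothelial list were close to the level of *Dbp*, 4.24 CPM in the control. Within the fibroblast list, *Dcn* at -1.64 and *Lum* at -1.36 were lower and *Pdgfra* at 0.61 and *Pdgfrb* at 0.71 were higher. Within the chondrocyte list, *Col11a2* had 0.82 and *Col9a3* 0.68, and *Sox9* had -0.47 and *Sox6* -0.61. The part of low oxygen, proliferation and cell makeup in the clock differences was not tested, and in bulk RNA fewer cells of a type and less RNA per cell cannot be told apart.

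With 1 harvest per genotype and no time of day given, no clock phase was assigned to either culture, and a difference in harvest time and a difference in genotype cannot be told apart.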

How the data were processed

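Primary chondrocytes were sequenced as 1 library per genotype. For each gene the authors deposited an expected count, an estimate of its reads without normalization, and FPKM, which scales them by gene length and library. The submitters' processing notes name GRCm38 and mm10. The aligner, the counting tool and the strand setting are not given in the sources used here. Of the columns named NC and KO, NC was read as the control. The authors' columns of fold changes and p-values were not used.

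Expected counts were rounded and each gene was tested by an exact binomial test (two-sided) against the share given by the totals, with Benjamini-Hochberg adjustment over 12431 genes, those whose counts over both libraries reached 10, and 9725 were left out. Ratios used unrounded counts, and counts under 3 were raised to 3. Intervals are 95% Clopper-Pearson intervals for ratios, exact Poisson intervals for FPKM and exact conditional intervals for odds ratios, and cover counting error only. The quasi-likelihood test of edgeR needs replicates and was not run. Genes named were all members, the called and some fixed genes of the clock list, the 2 highest and 2 lowest of every other list and genes overlapping a member. Of those, *Mylpf*, *Camk2a* and *Ryr1*, with few counts, *Pecam1* and the immune markers were not described singly. Nor were overlapping genes without counts, which were *Gm45355* at *Arntl*, *Ube2n-ps1* and *Gm43658* at *Clock* and *D930015M05Rik* at *Cry2*. The last shares 295 exon bases, 4.67% of its exons, with *Cry2* on the opposite strand, the share being that of *Cry2*. *AC170187.1* was named for the sequence it shares with *Nr1d2*. Named outside this rule, after their values were seen, were *Klf4*, *Rbm3*, *Tsc22d3*, *Col1a2*, *Thy1*, *Csnk1e*, *Csnk1d*, *Hdac3*, *Ncor1*, *Nampt*, *Tipin*, *Wee1*, *Sfpq* and *Usp2*. So were *Col2a1*, *Sox5*, *Col11a1*, *Prg4*, *Comp*, *Col9a1*, *Col9a2*, *Acan* and the other chondrocyte markers at 0. The members, lists and pairs were chosen with earlier results of these data known, and the KEGG lists, read from the deposited table, were added after the values were seen. Gene positions and transcripts came from GENCODE M21 on GRCm38 and promoters from RefSeq. Alternatives were TMM and DESeq2 scaling, 1 count added, the FPKM ratio, other filters, a 2-fold limit and edgeR's exact test at a preset coefficient of variation. The tests were tried on simulated data. The values of 1 gene are not reported here. Python 3.11.15, numpy 2.4.6, pandas 2.3.3, scipy 1.17.1, matplotlib 3.10.9, R 4.3.3, edgeR 4.0.16 and DESeq2 1.42.0 were used.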

Additional observations from a re-analysis of the deposited data

How the results depend on the processing

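With 1 library per genotype no library could be left out, and the spread between cultures is unknown. TMM factors, DESeq2 size factors and 1 count added left all 10 clock genes in the same direction and on the same side of the adjusted p. *Per2* did so only barely, with an exact-test adjusted p of 0.04998 with TMM factors and 0.0499 with DESeq2 size factors. The FPKM ratio kept 9 within their counting interval and moved *Per1* to 0.10. If cultures are assumed to vary, less remains: with edgeR's exact test at a coefficient of variation of 0.2 and 0.4, 0 clock members were called higher at either value, and the 6 members past the adjusted p all lost it. For *Per3*, the unadjusted p of edgeR's exact test was 0.00538 at 0.2 and 0.146 at 0.4, with an adjusted p of 1 in both. Of all genes, 175 and 25 had an unadjusted p below 0.05 there and 4 and 1 an adjusted p, against 5333 and 4397 by the exact binomial test. Among all genes, 3 and 1 were called higher (390 before) and 1 and 0 lower (115 before), and a 2-fold limit called 143 and 49. *Rorb* and *Bhlhe41*, of the other clock genes, were also lost: 0 were called higher at 0.2, at 0.4 and at a 2-fold limit, and 0 lower in these and with 1 count added or no filter on low counts. A count as low as that of *Dbp* or *Per2* limits what these libraries can show.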
